A study of Saccharomyces cerevisiae with 6 samples.

Results

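The genes described here encode the enzymes that carry pyruvate to ethanol and acetate in budding yeast. They are 3 pyruvate decarboxylase genes (PDC1, PDC5 and PDC6), 4 alcohol dehydrogenase genes (ADH1, ADH3, ADH4 and ADH5) and 3 aldehyde dehydrogenase genes (ALD4, ALD5 and ALD6), 10 of the 5656 genes measured. They were chosen by name, and each is read through the probe set of highest mean signal that the array's annotation ties to that gene alone.

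Transcripts were measured in the laboratory strain W303, in cultures that carry the prion [GAR+] and in [gar-] cultures that lack it. [GAR+] is a protein-based element that is inherited without a change in DNA and lets cells use carbon sources such as glycerol although a glucose mimic is present. All 6 cultures, 3 [GAR+] and 3 [gar-], grew in complete synthetic medium with 2% glucose to late exponential phase, and each was hybridised to 1 Affymetrix yeast array as labelled cRNA made from poly(A) RNA. The labels name no mutation, transgene or drug in either group, and they describe the cultures as grown separately.

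Pyruvate decarboxylase removes carbon dioxide from pyruvate and leaves acetaldehyde. Alcohol dehydrogenase reduces acetaldehyde to ethanol, which returns NADH to NAD+ and lets glycolysis go on, and aldehyde dehydrogenase oxidises acetaldehyde to acetate, the precursor of acetyl-CoA made outside the mitochondria. Yeast ferments through the first of these routes even with oxygen when glucose is plentiful, and several isoenzyme genes are known to be repressed by glucose.

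The deposited arrays did not share a scale, so quantile normalization was applied and every level below is a normalized signal, linear and in arbitrary units. Before it, the mean of each array without the outer 2% of values at each end ran from 192 to 500 for [GAR+] and from 250 to 295 for [gar-]. Log2 fold changes set [GAR+] over [gar-] after 16 was added to each signal, so changes of dim genes are understated. As a guide to background, 16 control probe sets for non-yeast or opposite-strand sequences were used, the highest of which read 15.1 to 20.2 on the [GAR+] arrays and 12.7 to 27.6 on the [gar-] arrays. The ratio of the 3' to the 5' actin control probe set, a measure of RNA integrity and labelling, was 1.04 to 1.31 on the [GAR+] arrays and 1.17 to 1.64 on the [gar-] arrays, and its part in the results was not tested. The strain's cell type was checked with mating type markers: all 6 genes specific to mating type a lay above the controls on every array, with a summed signal of 6411 to 8518 in [GAR+] and 5334 to 6767 in [gar-], while of 4 genes specific to mating type alpha, 1 (SAG1) did so, with sums of 108 to 138 in [GAR+] and 103 to 116 in [gar-]. Of 6 sporulation genes 1 (IME1) lay above the controls on every array, with sums of 113 to 169 in [GAR+] and 112 to 146 in [gar-].

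None of the 10 genes passed the test for a difference between [GAR+] and [gar-]. In limma across 6504 probe sets, 0 of them passed at an adjusted p under 0.05, where 0.0154% of all probe sets did, namely 1, that of the glucose transporter gene HXT3 (log2 fold change -5.80, adjusted p = 6.86e-07). At an unadjusted p under 0.05 the counts were 0 of 10 and 2.98%. For 0 of the 10 genes did the 3 [GAR+] signals lie wholly above or below the 3 [gar-] signals, against 8.86% of all probe sets. A count of 0 in 10 is near that share. The adjusted p was 1.00 for each of the 10 genes. As each array reads a whole culture, a change in the share of cells that express a gene and a change in transcript per cell cannot be told apart.

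PDC6 (YGR087C) could not be compared, because all 6 of its signals lay below the highest control of the same array. They were 1.17, 0.683 and 2.19 in [GAR+] cultures 1, 2 and 3, and 2.28, 1.07 and 10.1 in [gar-] cultures 1, 2 and 3. Pdc6 is a minor isoenzyme, known to be made mainly when sulfur is scarce. The other 9 genes lay above the controls on every array. Their log2 fold changes ran from -0.08 for PDC5 to 0.14 for ALD6, with a median of 0.04, against 0.01 over all 5656 genes. Of the 9, 5 lay above 0 and 4 below, while 51.8% of all probe sets lay above 0. For 8 of the 9 the 95% confidence interval lay within 2-fold in either direction, as it did for 96.1% of all probe sets. The exception in this fit, which had no covariate, was ALD4.

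**Figure D1:**
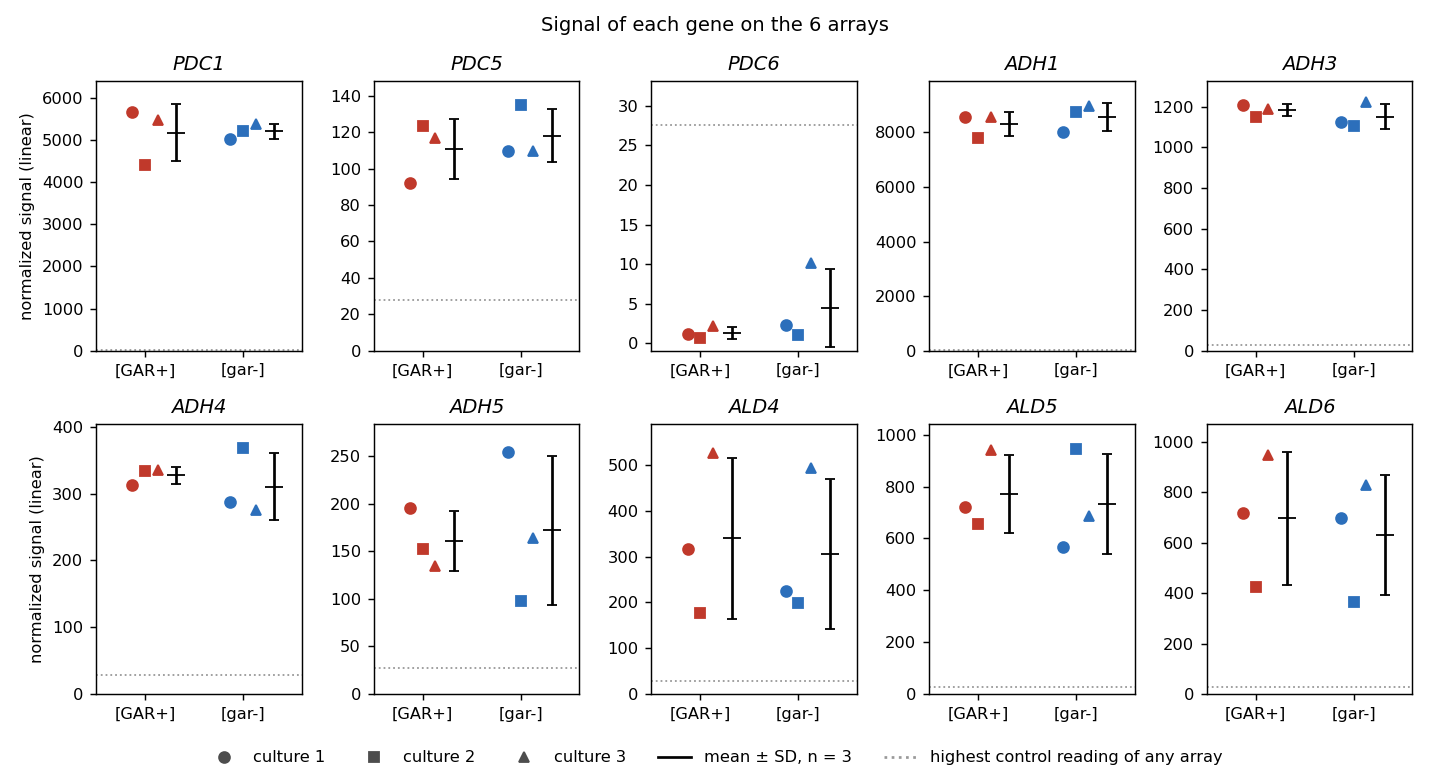
Normalized signal (linear, arbitrary units) of each gene on the 6 arrays, [GAR+] in red and [gar-] in blue, with the culture number as the symbol and the mean ± SD (n = 3) in black. The dotted line is 27.6, the highest control reading of any array. The groups overlap for every gene, and PDC6 lies below the line.

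PDC1 (YLR044C) encodes the main pyruvate decarboxylase of cells grown on glucose. Its signal was 5664, 4404 and 5470 in [GAR+] cultures 1, 2 and 3, and 5025, 5219 and 5379 in [gar-] cultures 1, 2 and 3. [GAR+] culture 2 gave the lowest reading and [GAR+] culture 1 the highest, so the [GAR+] values enclose those of [gar-]. The means were 5179 ± 678 in [GAR+] and 5208 ± 177 in [gar-] (SD, n = 3 each), a log2 fold change of -0.02 with a standard error of 0.12 and a 95% interval of -0.28 to 0.25. The sign was not stable: the log2 fold change was 0.093 without [GAR+] culture 2 and 0.0070 without [gar-] culture 3.

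PDC5 (YLR134W) encodes a second active pyruvate decarboxylase, a gene known to be induced when PDC1 is lost or thiamine is short. It read 92.0, 124 and 117 in [GAR+] cultures 1, 2 and 3, and 110, 135 and 109 in [gar-] cultures 1, 2 and 3. The culture numbered 2 was the highest of its group in both, and the groups overlap. The means were 111 ± 16.6 in [GAR+] and 118 ± 14.6 in [gar-] (SD, n = 3 each), and the log2 fold change was -0.08 with a standard error of 0.17 and an interval of -0.47 to 0.31. PDC1 and PDC5 are close in sequence, and how far their probe sets respond to each other's transcript was not tested.

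ADH1 (YOL086C) encodes the cytosolic enzyme that makes most of the ethanol. It read 8565, 7810 and 8565 in [GAR+] cultures 1, 2 and 3, and 8003, 8753 and 8979 in [gar-] cultures 1, 2 and 3. The equal readings of [GAR+] cultures 1 and 3 arise because the probe set had the same rank on both arrays. Before normalization, on arrays of differing scale, the readings were 12327, 5987 and 9023 in [GAR+] and 7397, 8269 and 7534 in [gar-], in culture order. After it replicates differed little, by at most 1.10-fold within [GAR+] and 1.12-fold within [gar-]. How much of this narrow spread comes from the normalization of so bright a probe set was not tested. The means were 8313 ± 436 in [GAR+] and 8578 ± 511 in [gar-] (SD, n = 3 each), with a log2 fold change of -0.04, a standard error of 0.09 and an interval of -0.25 to 0.16, the narrowest of the 10 genes. Adh2, the glucose-repressed isoenzyme that consumes ethanol, is very close to Adh1 in sequence. Its gene, singled out after its values were seen, read 53.3 ± 5.25 in [GAR+] and 53.2 ± 15.3 in [gar-] (SD, n = 3 each), with a log2 fold change of 0.02 and an adjusted p of 1.00 in limma. How much of that signal is ADH1 transcript was not tested.

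ADH3 (YMR083W) encodes the mitochondrial alcohol dehydrogenase, which takes part in passing reducing equivalents across the inner membrane. Its signal was 1211, 1151 and 1188 in [GAR+] cultures 1, 2 and 3, and 1126, 1106 and 1221 in [gar-] cultures 1, 2 and 3. The readings interleave, and the coefficient of variation was 2.57% in [GAR+] and 5.34% in [gar-]. The means were 1183 ± 30.5 in [GAR+] and 1151 ± 61.5 in [gar-] (SD, n = 3 each), a log2 fold change of 0.04 with a standard error of 0.13 and an interval of -0.25 to 0.32.

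ADH4 (YGL256W) encodes an enzyme of a separate protein family, and its gene is known to be induced when zinc is short. It read 313, 334 and 336 in [GAR+] cultures 1, 2 and 3, and 288, 368 and 275 in [gar-] cultures 1, 2 and 3. All [GAR+] readings fell between the lowest and the highest [gar-] reading, and [gar-] culture 2 was the highest of all. The means were 327 ± 12.9 in [GAR+] and 310 ± 50.6 in [gar-] (SD, n = 3 each), a log2 fold change of 0.08 with a standard error of 0.17 and an interval of -0.29 to 0.46. A second ADH4 probe set averaged 5.41 in [GAR+] and 8.81 in [gar-], and lay above the highest control on 1 of 6 arrays.

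ADH5 (YBR145W) encodes a minor cytosolic isoenzyme. Its signal was 196, 152 and 134 in [GAR+] cultures 1, 2 and 3, and 255, 97.9 and 164 in [gar-] cultures 1, 2 and 3. The highest and the lowest reading were both of [gar-], 2.60-fold apart, and the [GAR+] readings lay between them. The means were 161 ± 31.8 in [GAR+] and 172 ± 78.7 in [gar-] (SD, n = 3 each), and the log2 fold change was -0.02 with a standard error of 0.29 and an interval of -0.67 to 0.64. It took either sign as single arrays were left out, with 0.29 without [gar-] culture 1 and -0.33 without [gar-] culture 2.

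**Figure D2:**
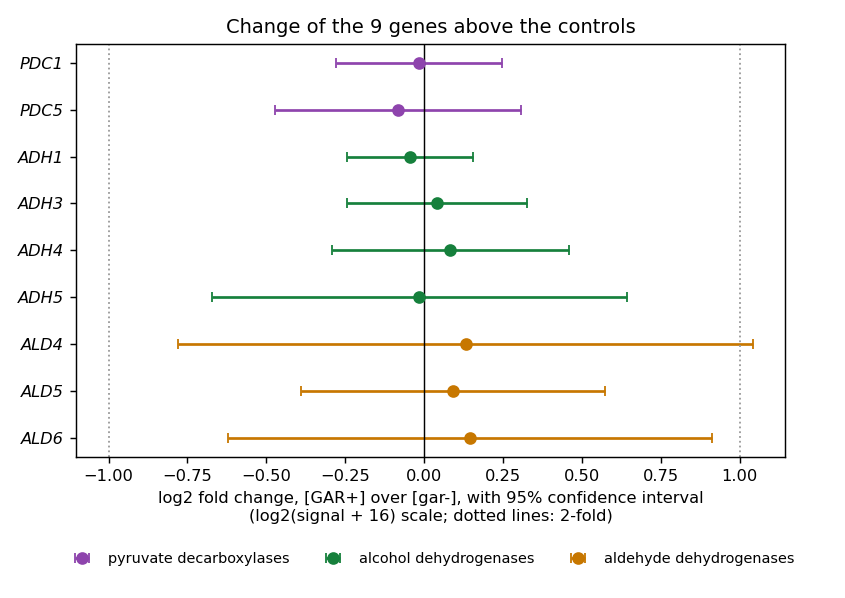
Log2 fold change, [GAR+] over [gar-], of the 9 genes above the controls, with 95% confidence intervals from limma without covariate (6 arrays). All intervals include 0, and only that of ALD4 (-0.78 to 1.04) reaches past the dotted 2-fold lines. With the culture number as a block, not drawn, the ALD4 interval was -0.23 to 0.49.

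In the fit without covariate, ALD4 and ALD6 had the largest standard errors of the 10 genes, because their signals varied between cultures of both groups. ALD6 (YPL061W) encodes the cytosolic enzyme that makes most acetate on glucose and yields NADPH. It read 719, 422 and 950 in [GAR+] cultures 1, 2 and 3, and 698, 366 and 828 in [gar-] cultures 1, 2 and 3. Culture 3 was the highest and culture 2 the lowest in both groups, and the groups overlap. The means were 697 ± 264 in [GAR+] and 631 ± 238 in [gar-] (SD, n = 3 each), with a log2 fold change of 0.14, a standard error of 0.34 and an interval of -0.62 to 0.91. The log2 fold change was -0.11 without [GAR+] culture 3 and -0.19 without [gar-] culture 2. A second ALD6 probe set averaged 4.20 in [GAR+] and 5.09 in [gar-], below the highest control on all 6 arrays.

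ALD4 (YOR374W) encodes the main mitochondrial aldehyde dehydrogenase, a gene known to be repressed by glucose. Its signal was 317, 177 and 527 in [GAR+] cultures 1, 2 and 3, and 226, 199 and 495 in [gar-] cultures 1, 2 and 3. Culture 3 was again the highest and culture 2 the lowest in both groups, with the highest reading 2.98-fold above the lowest in [GAR+] and 2.49-fold in [gar-]. The means were 340 ± 176 in [GAR+] and 306 ± 164 in [gar-] (SD, n = 3 each), a log2 fold change of 0.13 with a standard error of 0.41 and an interval of -0.78 to 1.04, so an increase of up to 2.06-fold lies inside it. That fit had no covariate. With the culture number as a block in limma, the standard error was 0.16 and the interval -0.23 to 0.49, within 2-fold. The log2 fold change without the block was -0.24 without [GAR+] culture 3 and 0.52 without [GAR+] culture 2.

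ALD5 (YER073W) encodes a minor mitochondrial isoenzyme. It read 721, 655 and 942 in [GAR+] cultures 1, 2 and 3, and 567, 943 and 684 in [gar-] cultures 1, 2 and 3. Culture 2 was the lowest of the [GAR+] readings but the highest of the [gar-] readings, unlike ALD4 and ALD6. The means were 773 ± 150 in [GAR+] and 732 ± 192 in [gar-] (SD, n = 3 each), a log2 fold change of 0.09 with a standard error of 0.21 and an interval of -0.39 to 0.57. Without both arrays numbered 2 its log2 fold change was 0.39 (unadjusted p = 0.0637, adjusted p = 1.00 in limma).

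The shared order of the culture numbers in ALD4 and ALD6 was examined after the values had been seen, with the number as a factor of 3 levels beside the group in limma. ALD6 passed (adjusted p = 0.0384), as did ALD4 at the edge of the threshold (adjusted p = 0.0495), and the other 8 genes did not, with ADH5 the nearest (adjusted p = 0.249). Over all probe sets 42, or 0.646%, passed. On the log2 scale the culture numbered 2 lay below the mean of the other two by 0.94 in [GAR+] and 1.02 in [gar-] for ALD6, and by 1.14 in [GAR+] and 0.71 in [gar-] for ALD4. The calls rest on few arrays: without [GAR+] culture 3 or without [gar-] culture 3 neither gene passed (adjusted p of 0.120 and 0.0920 for ALD6, 0.144 and 0.159 for ALD4), and neither passed without between-array normalization (0.912 for both) or without an intensity trend (0.0616 for ALD6, 0.0732 for ALD4). ALD4 alone was lost with trimmed-mean scaling (0.0541).

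Both arrays numbered 2 stood apart over all genes, with scores of 22.0 in [GAR+] and 12.4 in [gar-] on the first principal component, where the others had -8.27 and -7.96 in [GAR+] and -7.97 and -10.1 in [gar-]. They also stood apart from each other, with -13.5 in [GAR+] and 19.8 in [gar-] on the second component, where the others had -2.71 and -4.75 in [GAR+] and 1.64 and -0.43 in [gar-]. Their 3' to 5' actin ratios, 1.04 in [GAR+] and 1.17 in [gar-], were the lowest of the 6. The part of either in the ALD4 and ALD6 signals was not tested, and the labels do not say what a culture number shares. Of all probe sets, 16.7% had the culture numbered 2 as the lowest in both groups and 22.8% as the highest. Of the 9 genes above the controls, 3 were lowest there (ADH3, ALD4 and ALD6) and 1 was highest (PDC5). Within culture numbers the log2 difference of [GAR+] from [gar-] was 0.04, 0.20 and 0.19 at numbers 1, 2 and 3 for ALD6, above 0 at each, which held for 15.4% of all probe sets. For ALD4 it was 0.46, -0.16 and 0.09.

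**Figure D3:**
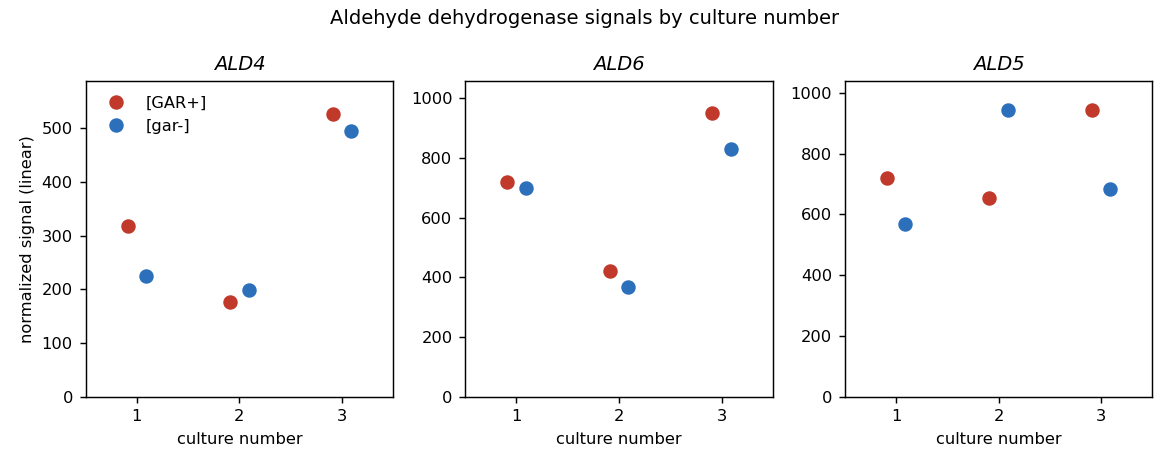
Normalized signal (linear, arbitrary units) of the aldehyde dehydrogenase genes against culture number, with [GAR+] in red left of [gar-] in blue, 1 array per point. ALD4 and ALD6 are lowest at number 2 and highest at number 3 in both groups, while ALD5 differs between the groups at number 2 (655 in [GAR+], 943 in [gar-]).

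The balance between isoenzymes was compared as the log2 ratio of 2 signals on the same array. The ratio itself depends on how strongly each probe set responds, so only its differences between groups or arrays are read. Of the 7 ratios, that of PDC6 to PDC1 has no meaning here because PDC6 lay below the controls. Intervals of the ratios are ordinary t intervals from the pooled SD of the groups. They are not those of limma and leave out the culture number. The difference, [GAR+] minus [gar-], was -0.07 for PDC5 over PDC1 (95% interval -0.71 to 0.57). For the alcohol dehydrogenases it was 0.08 for ADH3 over ADH1 (-0.06 to 0.23), 0.13 for ADH4 over ADH1 (-0.27 to 0.52) and 0.03 for ADH5 over ADH1 (-1.15 to 1.21). For the aldehyde dehydrogenases it was -0.01 for ALD4 over ALD6 (-0.81 to 0.78) and -0.05 for ALD5 over ALD6 (-1.65 to 1.54). The groups overlapped for every ratio. The exact two-sided permutation test, which cannot go below p = 0.1 with 3 against 3, gave 0.2 for ADH3 over ADH1 and 0.4 to 1 for the others, and 1.00 for each after adjustment over the 7 ratios. Within culture numbers 1, 2 and 3 the difference was 0.0052, 0.22 and 0.028 for ADH3 over ADH1 and 0.015, 0.027 and 0.34 for ADH4 over ADH1, above 0 at each number, while the other 4 ratios took both signs. An exact paired permutation test gave p = 0.25 for both, the smallest that 3 pairs allow. Leaving out single arrays gave either sign for PDC5 over PDC1 (0.12 without [GAR+] culture 1, -0.25 without [GAR+] culture 2), ADH5 over ADH1 (0.38 without [gar-] culture 1, -0.31 without [gar-] culture 2), ALD4 over ALD6 (-0.27 without [gar-] culture 1, 0.15 without [gar-] culture 3) and ALD5 over ALD6 (0.48 without [gar-] culture 2, -0.33 without [gar-] culture 1). ADH4 over ADH1 ran from 0.019 without [gar-] culture 3 to 0.23 without [gar-] culture 2. The intervals are widest for ALD5 over ALD6, where [gar-] culture 2 gave a log2 ratio of 1.33, against -0.29 and -0.27 in [gar-] cultures 1 and 3 and 0.005, 0.61 and -0.01 in [GAR+] cultures 1, 2 and 3.

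**Figure D4:**
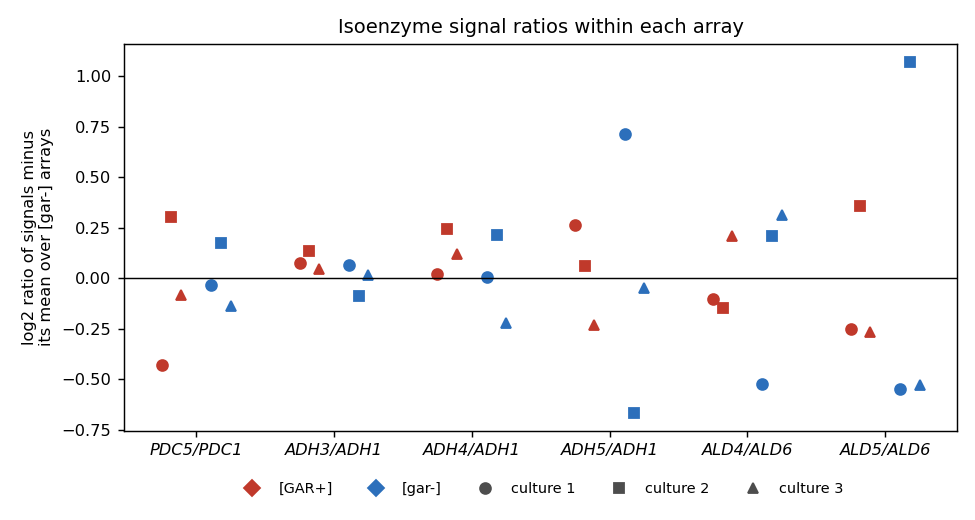
Log2 ratio of isoenzyme signals on each array, minus its mean over the [gar-] arrays, with [GAR+] in red left of [gar-] in blue and the culture number as the symbol. The groups overlap for all 6 ratios drawn, and ADH3 over ADH1 is the tightest.

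Genes that surround these enzymes in metabolism and regulation were examined as 7 lists of 104 genes, 95 of them measured. With limma over all probe sets 0 of the 95 passed, and 1 had an unadjusted p under 0.05, against 2.98% of all probe sets. With the culture number as a block, the unadjusted p was under 0.05 for BDH2, GRE2, ILV2, PYK2, CIT2, SIP4, FET4, GND1, SOL4 and ZWF1. The lowest was that of CIT2 (0.0011), and the adjusted p of each was 0.735 in limma. The share of all probe sets under 0.05 in that fit was not counted, so whether these genes exceed it is not known. The groups did not overlap for 5 of the 95, or 5.26%, against 8.86% of all probe sets, and these were STB5, ILV2, MPC1, SIP4 and GND1. Among the genes named below, BDH2, THI2 and ZRG8 lay above the controls on 5 of 6 arrays and THI4 on 4. All adjusted p below are 1.00 in limma, and signals are means ± SD (n = 3 each).

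Related dehydrogenases, reductases and decarboxylases, 13 measured of 14, had a median log2 fold change of -0.09, with 5 above 0 and 8 below. The genes of smallest p were BDH2, a relative of the butanediol dehydrogenase gene, at 32.5 ± 16.6 in [GAR+] and 46.3 ± 7.42 in [gar-] (-0.41), and GRE2, a reductase gene of the stress response, at 526 ± 220 in [GAR+] and 729 ± 217 in [gar-] (-0.52). Regulators of the enzyme genes, 13 of 13, had a median of 0.07, with 9 above 0. THI2, an activator of thiamine genes, gave 31.2 ± 7.03 in [GAR+] and 22.7 ± 2.57 in [gar-] (0.28). GCR1, the activator of glycolytic genes including those of PDC1 and ADH1, gave 307 ± 33.0 in [GAR+] and 232 ± 78.1 in [gar-] (0.43), and the [gar-] readings were 293, 144 and 257 in cultures 1, 2 and 3.

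Genes for other fates of pyruvate, 16 of 16, had a median of -0.04, with 7 above 0. ILV2, the acetolactate synthase gene, had 1500.5 ± 240 in [GAR+] and 1178 ± 41.5 in [gar-] (0.33, unadjusted p = 0.0546). PYK2, a glucose-repressed pyruvate kinase gene, had 41.3 ± 19.9 in [GAR+] and 62.1 ± 14.6 in [gar-] (-0.50). Genes of acetyl-CoA synthesis and ethanol use, 15 of 15, had a median of 0.02, with 8 above 0. CIT2, a peroxisomal citrate synthase gene, had 608 ± 286 in [GAR+] and 940 ± 302 in [gar-] (-0.66, unadjusted p = 0.0639). SIP4, a regulator of gluconeogenesis, had 11.8 ± 4.83 in [GAR+] and 18.9 ± 2.20 in [gar-] and lay above the controls on 1 of 6 arrays.

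Thiamine genes were included because thiamine pyrophosphate is the cofactor of pyruvate decarboxylase. Of 19, 11 were measured, with a median of 0.07 and 7 above 0. THI4 gave 27.9 ± 3.42 in [GAR+] and 23.2 ± 6.13 in [gar-] (0.17), and THI6 gave 157 ± 37.4 in [GAR+] and 134 ± 11.6 in [gar-] (0.19). Zinc genes were included because alcohol dehydrogenases bind zinc. All 14 were measured, with a median of 0.09 and 10 above 0. FET4, a low-affinity iron and zinc transporter gene, gave 455 ± 89.2 in [GAR+] and 335 ± 104 in [gar-] (0.44), and ZRG8 gave 62.1 ± 4.06 in [GAR+] and 43.1 ± 29.2 in [gar-] (0.57). The [gar-] mean of ZRG8 is lowered by culture 2, which read 9.34, below the highest control of that array (21.4), while [gar-] cultures 1 and 3 read 61.3 and 58.5, next to 59.3 to 66.8 in [GAR+].

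Genes of NADPH supply, the cofactor that Ald6 also yields, were all measured (13), with a median of -0.07, 5 above 0 and 8 below. GND1, the main 6-phosphogluconate dehydrogenase gene, read 1790.0 ± 416 in [GAR+] and 2380 ± 81.5 in [gar-] (-0.44, unadjusted p = 0.0339, adjusted p = 1.00 in limma). RKI1, a ribose-5-phosphate isomerase gene, read 693 ± 157 in [GAR+] and 547 ± 67.8 in [gar-] (0.32).

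**Figure D5:**
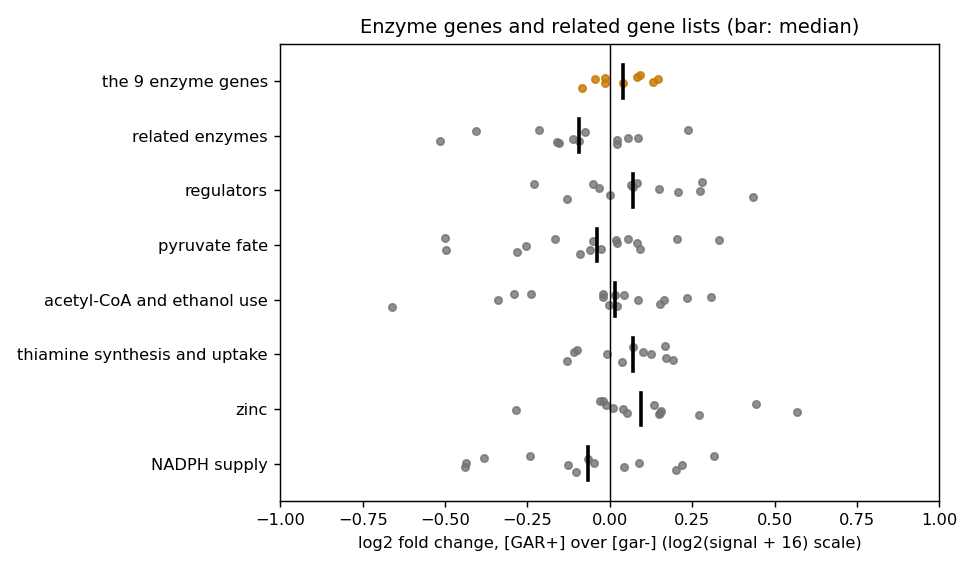
Log2 fold change, [GAR+] over [gar-], of the 9 enzyme genes above the controls (orange) and of the genes on each related list (grey), with the median as a bar. No gene drawn passed the test, and the medians lie between -0.09 and 0.09.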

How the data were processed

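Poly(A) RNA of 6 W303 cultures was measured on 6 arrays. The authors deposited a linear intensity for each probe set on each array. The submitters' processing notes name the tools MAS5 and GCOS. Tool versions, a scaling target, detection calls and a genome build were not given in the sources used here.

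All 9335 probe sets were quantile-normalized and analysed as log2(signal + 16) with no filter on low values. The 6504 probe sets with exactly 1 gene in the platform annotation of 2016 were tested (5656 genes, all matched by gene identifier to RefSeq's table of assembly R64), while 328 had several genes and 2503 had none listed. The test was limma 3.58.1 in R 4.3.3 with moderated variances that follow an intensity trend (lmFit and eBayes), two-sided and without covariate, with Benjamini-Hochberg adjustment. The steps were tested on simulated data with noise drawn separately for each array, without the shared order of culture numbers. Of 40 probe sets changed 1.5-fold 4 were called, of 40 changed 2-fold 21, and of 40 changed 4-fold 40. Of 40 each changed 8-fold and 16-fold, 39 were called. The changed probe sets were drawn from those with a mean signal of at least 50. With so many changed, the adjusted threshold was easier to reach than in the data, where 1 probe set passed. Fewer 2-fold changes would thus be called in the data, and smaller ones would mostly be missed. Of 148 calls 5 were of unchanged probe sets, a share that holds only for this mix of changes. The number of arrays limits the precision, with a median standard error of 0.18 (log2). If cultures shared an inoculum, which the labels do not say, p-values would reflect only the spread between these samples.

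The members, lists, tests and alternatives were chosen with earlier results of these data known. All members are named. Of each list, the 2 genes of smallest unadjusted p are named, and HXT3 is named as the gene known to differ. The culture-number factor, the paired test of ratios and the omission of both arrays numbered 2 were added after the data had been seen. As a check of pairing, arrays with the same number were compared after subtraction of group means. Their correlations were 0.322, 0.347 and 0.346, each above the 0.1 taken as the limit for pairing. Arrays of different numbers, across the groups, gave -0.311 to 0.0751. As deviations cancel out within a group, these correlations are not independent of each other. The pairing comes from these values alone.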

Additional observations from a re-analysis of the deposited data

How the results depend on the processing

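Under all 14 alternatives 0 of the 10 genes passed, and 0 genes of the related lists passed under the 9 run for them. PDC6 was not tested in the alternative limited to probe sets with a mean signal of at least 50. With the culture number as a block, 0 genes passed as well (lowest adjusted p of the 9 genes 0.821, for ALD6, log2 fold change 0.14 with an interval of -0.13 to 0.42), so the pairing changed no call. Signs of these uncalled changes were less stable. Without between-array normalization, where the median over all probe sets was 0.16, the log2 fold change was 0.14 for PDC1, 0.076 for PDC5, 0.18 for ADH1 and 0.16 for ADH5, the median of the 9 genes was 0.18 against 0.04, and the ADH3 over ADH1 difference was -0.00069. With trimmed-mean scaling ADH1 gave 0.026 and ADH5 0.0054. Without both arrays numbered 2 PDC1 gave 0.093 and ADH1 0.022, the ADH3 over ADH1 difference was 0.011, and the groups did not overlap for 4 genes, where 31.5% of all probe sets did not. The weaker probe sets of ADH4 and ALD6, at the level of the controls, gave -0.22 and -0.059.

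With 1 array left out in turn the median of the 9 genes ran from -0.058 to 0.071 and the count of genes whose groups did not overlap from 0 to 2 (at most 19.4% of all probe sets). The log2 fold change ran from -0.091 to 0.093 for PDC1, -0.16 to 0.028 for PDC5, -0.092 to 0.0021 for ADH1, -0.33 to 0.29 for ADH5, -0.24 to 0.52 for ALD4, -0.073 to 0.29 for ALD5 and -0.19 to 0.46 for ALD6, and ADH3 (0.013 to 0.083) and ADH4 (0.0067 to 0.21) kept their sign. The count passing for the culture number, 2, was 0 without between-array normalization, 1 with trimmed-mean scaling, 0 without an intensity trend and 0 to 4 with 1 array left out. The 4 arose without [GAR+] culture 2, where 9.79% of all probe sets passed, and without [gar-] culture 2 the share was 10.6% (2 genes), against 0.646% with all arrays, so the rise was seen over the whole array. Leaving out any other array, which removes as many, gave a far smaller share. Each of these fits reads 1 culture number from a single array. The cause of the rise was not tested.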
